A study of Mus musculus with 20 samples.

Results

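Serpins are a family of protease inhibitors, and 43 serpin genes were examined here in neutrophils that had been sorted from 3 organs and from blood of mice with pancreatic cancer. Members were taken by name: every gene of the count table whose symbol is Serpin followed by a clade letter from a to i and a number was taken, and 63 symbols fitted. Of these, 43 had a count in at least 1 of 20 libraries and 20 had none, out of 51912 genes in the table, of which 28762 had a count. The members were 17 clade A genes, 15 clade B genes, 3 of clade E, 2 each of clades F and I, and 1 each of clades C, D, G and H.

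The libraries came from 5 groups of 4: neutrophils of brain, tumor and liver from mice inoculated with KPC pancreatic cancer cells, circulating neutrophils of tumor mice (tumor mouse blood), and circulating neutrophils of sham mice, which received saline. KPC cells are a line of mouse pancreatic tumor cells from a model whose mutations were directed to the pancreas by Pdx1-Cre, so the tumor was a graft of cultured cells. All mice were C57BL/6 aged 7 to 12 weeks, were taken at 10 days post-inoculation (d.p.i.), and were perfused through the heart after blood was drawn. Neutrophils were live single cells high in CD11b and Ly6G, from which picogram amounts of RNA were amplified, so a gene with few transcripts can be missed in a library. No label gives a sex per library or states whether libraries of different organs shared a mouse, and p-values measure the spread between the libraries of a group.

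A serpin inhibits a protease by offering a loop as bait. The protease cuts the loop, the serpin changes shape, and both remain joined in an inactive complex. Clade A and most other secreted serpins are plasma proteins made largely by the liver, whereas clade B serpins lack a classical secretion signal and act mostly inside cells. In neutrophils the best known member is Serpinb1a, the cytoplasmic inhibitor of elastase, cathepsin G and proteinase 3, the serine proteases stored in azurophil granules. Others control plasminogen activation (Serpine2, Serpinb2), complement (Serping1) or coagulation (Serpinc1, Serpind1), and a few, such as the collagen chaperone Serpinh1, inhibit no protease.

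Library totals were 47388245 to 54472378 reads, and levels are given as CPM, read counts scaled to a common library total with TMM factors. The 12 neutrophil markers summed to 76892 CPM in brain, 11528 CPM in tumor, 42294 CPM in liver, 60274 CPM in tumor mouse blood and 33573 CPM in sham mouse blood, and Ly6g itself was at only 1.43 to 13.2 CPM in tumor libraries, against 117 to 316 CPM in tumor mouse blood. Markers of other cells were measured in every organ: 12 pancreatic epithelial markers summed to 1020.0 to 3543 CPM in tumor libraries, against 3.41 to 6.98 CPM in tumor mouse blood, and 12 macrophage and microglia markers to 2177 to 8345 CPM in brain, 6751 to 10058 CPM in tumor and 2392 to 4449 CPM in liver, against 1201 to 1606 CPM in tumor mouse blood. The 10 B cell markers summed to 84.0 to 148 CPM in tumor mouse blood and 1109 to 2145 CPM in sham mouse blood, with 6 called lower. Fewer cells of a type and less RNA per cell cannot be told apart in sorted bulk samples.

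Serpins of brain-infiltrating neutrophils were led by Serpinb1a and Serpine2, whose levels in each brain library stood above those in every other library of the series. Over the 5 groups, 23 of 43 members differed by the edgeR quasi-likelihood F test at an adjusted p under 0.05, which is 53.5% of the family against 30.8% of all genes tested. In total 19 members were called in at least 1 of 7 comparisons (adjusted p under 0.05 and a log2 fold change of at least 2 in size) and 24 were called in none. Only 25 members reached a mean of 1 CPM in any group, and the other 18 did not exceed a group mean of 0.940 CPM. The heat map of group means shows 24 of the 25.

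**Figure D1:**
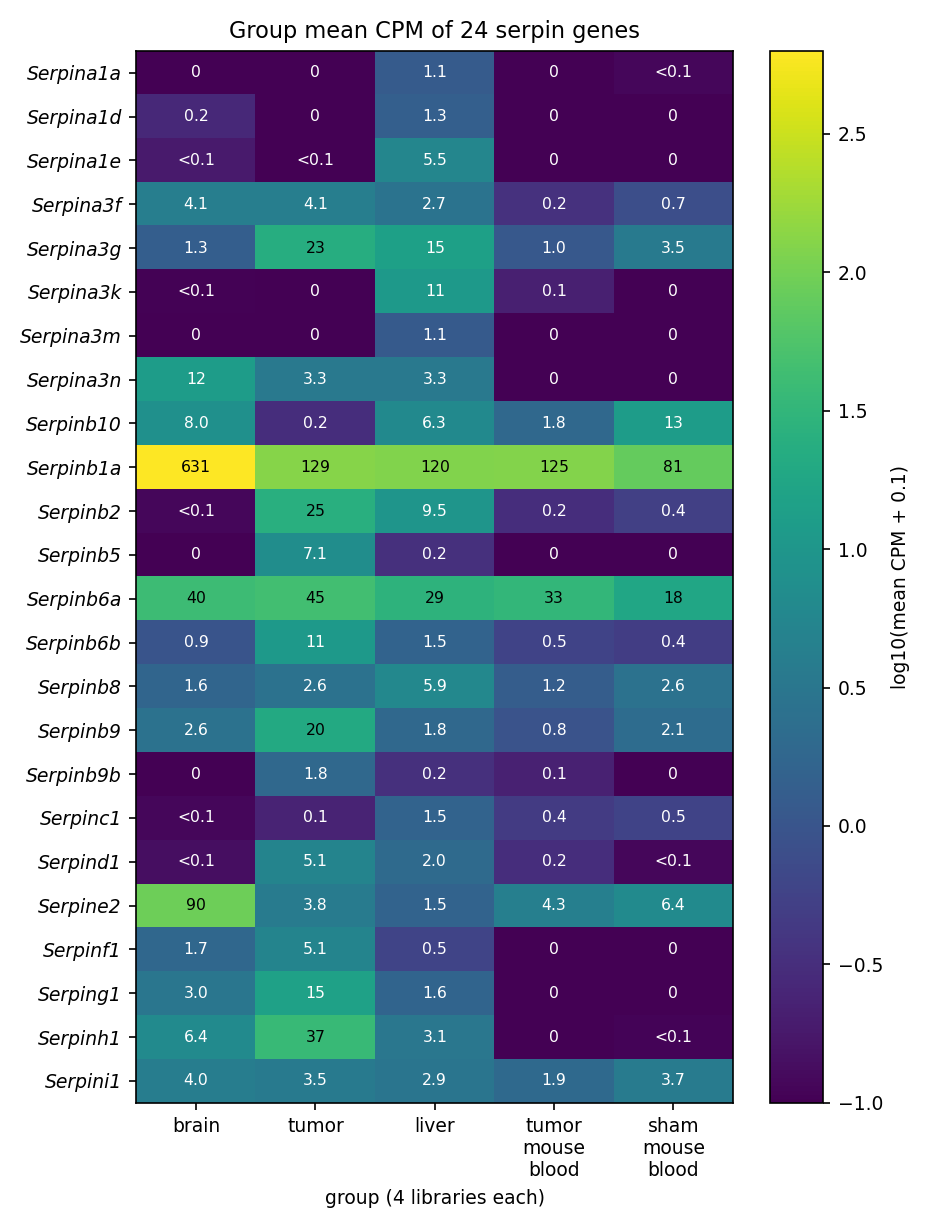
Mean CPM (TMM scaled, 4 libraries per group) of 24 serpin genes that reached 1 CPM in at least 1 group; rows are genes, columns are groups, the number in a cell is the mean CPM and the color is log10(mean CPM + 0.1). Serpinb1a reaches 631 CPM in brain, Serpina3k, Serpina3m and the Serpina1 genes are highest in the liver column, and Serping1, Serpina3n, Serpinb5 and Serpinf1 are 0 in both blood columns.

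Serpinb1a was the most abundant serpin in every group when levels were divided by exon length. It had 273.8 CPM per kb in brain, 56.17 in tumor, 51.98 in liver, 54.08 in tumor mouse blood and 34.97 in sham mouse blood, which was 88.2%, 40.8%, 56.0%, 85.2% and 73.5% of the family's summed CPM per kb in those groups. The member in second place differed by group. It was Serpine2 in brain (10.88 CPM per kb), Serpinh1 in tumor (14.98), Serpina3g in liver (6.915), Serpinb6a in tumor mouse blood (6.042) and Serpinb10 in sham mouse blood (3.618).

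Serpinb1a (ENSMUSG00000044734; mm10 chromosome 13, 32842092 to 32851185, minus strand) had 583, 378, 862 and 699.6 CPM in brain libraries. It had 125, 111, 191 and 89.5 CPM in tumor, 153, 151, 94.1 and 80.7 CPM in liver, and 156, 161, 97.6 and 82.8 CPM in tumor mouse blood. Each brain library was above each library of tumor, liver and tumor mouse blood, while these 3 groups overlapped. Sham mouse blood had 45.9, 171, 48.3 and 56.9 CPM, with replicate 2 apart from the other libraries. Serpinb1a rose in brain by 2.34 ± 0.39 on the log2 scale (SE) against tumor mouse blood (adjusted p = 0.00088), by 2.28 ± 0.39 against tumor (adjusted p = 0.000233) and by 2.40 ± 0.39 against liver (adjusted p = 0.00143). Here and below, the SE of a log2 difference is its size divided by the square root of its F statistic. With sequencing lane as a term the difference between brain and tumor mouse blood was 1.99, just under the threshold of 2, at an adjusted p of 0.00322. These groups shared only lane 1. Of the 12 neutrophil markers, 8 were called higher and 0 lower in brain than in tumor, and 0 either way against liver or tumor mouse blood. The markers summed to 76892 CPM in brain and 11528 CPM in tumor, and their part in the Serpinb1a differences was not tested.

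Serpine2, also called protease nexin 1 and an inhibitor of thrombin and plasminogen activators, had the sharper contrast. Its level was 70.5, 139.6, 81.4 and 69.3 CPM in brain, against 7.85, 0, 4.18 and 3.06 CPM in tumor, 1.24, 0.736, 2.89 and 1.31 CPM in liver, and 4.49, 4.39, 2.05 and 6.30 CPM in tumor mouse blood. In sham mouse blood it was 3.25, 5.76, 13.4 and 3.39 CPM, so every brain library exceeded every other library. The rise was 4.38 ± 0.88 (log2, SE) against tumor mouse blood (adjusted p = 0.00432), 4.57 ± 0.89 against tumor (adjusted p = 0.000838) and 5.84 ± 0.95 against liver (adjusted p = 0.00123). All 3 calls held under every alternative that was run, with a rise of 5.17 over tumor without tumor replicate 1 and of 5.25 over liver with lane as a term.

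**Figure D2:**
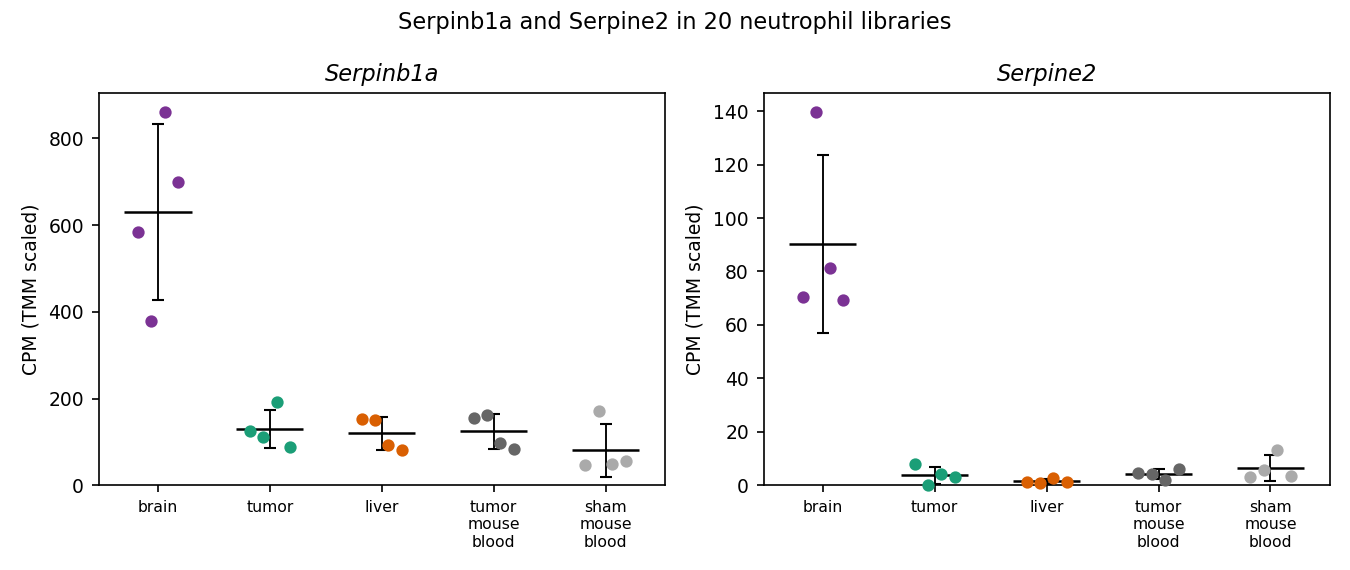
CPM (TMM scaled, linear axis from 0) of Serpinb1a and Serpine2 by group; points are libraries, horizontal lines are group means and bars are ± SD over 4 libraries. The 4 brain libraries lie at 378 to 862 CPM for Serpinb1a and 69.3 to 139.6 CPM for Serpine2, above all 16 others.

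Brain libraries also held transcripts of other cells. The 12 markers of brain endothelium and pericytes summed to 136 to 449 CPM in brain, against 41.2 to 112 CPM in tumor, 5.02 to 25.2 CPM in liver and 2.21 to 9.11 CPM in tumor mouse blood, with all 12 counted in brain. The choroid plexus and glia markers summed to 338, 429, 1831 and 296 CPM in brain. They summed to 204 to 427 CPM in tumor mouse blood and 391 to 586 CPM in sham mouse blood. None of the 12 was at 0 in brain, against 4 in each blood group. By gene, 3 of them (Ttr, Kl and Clic6) were called higher and 0 lower in brain than in tumor mouse blood. By the sum, only brain replicate 4, at 1831 CPM, stood above both blood groups, and it had the highest Serpinb1a. The highest Serpine2 was in brain replicate 3, which had the highest macrophage and microglia sum (8345 CPM) and the lowest neutrophil sum (56192 CPM) of that group. Serpine2 is also expressed by glia and vessel cells, and the part of these cells in its level was not tested.

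The proteases that Serpinb1a inhibits were low in all groups. Elane, neutrophil elastase, had 7.08, 22.3, 5.42 and 5.77 CPM in brain, against 0.0218, 0.0203, 1.26 and 0 CPM in tumor mouse blood, and missed the threshold (log2 difference 4.81 ± 1.57, SE, adjusted p = 0.0812). Prtn3, proteinase 3, averaged 7.17 ± 4.17 CPM in brain, 25.4 ± 7.79 in tumor, 14.1 ± 3.18 in liver, 7.65 ± 4.00 in tumor mouse blood and 1.13 ± 0.793 in sham mouse blood (SD, n = 4). Ctsg, cathepsin G, averaged 0.845 ± 1.21 CPM in brain and under 0.1 CPM elsewhere. Plat, tissue plasminogen activator and a target of Serpine2, did rise: it had 37.6, 32.8, 75.9 and 27.7 CPM in brain, against 0.0218, 0.0203, 0 and 0 CPM in tumor mouse blood (adjusted p = 1.97e-06). It was also called higher in tumor and in liver than in tumor mouse blood. The endothelium and pericyte markers summed to 244, 136, 449 and 141 CPM in the same brain libraries. Replicate 4 was highest for this sum and for Plat, and the part of these cells was not tested.

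In all, 6 members were higher and 0 lower in brain than in tumor mouse blood (14% of 43), where 2.66% of all genes tested were called higher and 0.396% lower. The other 4 were Serpinh1, Serping1, Serpina3n and Serpinf1, and none of these had a read in tumor mouse blood. The median log2 fold change over the 43 members was 0, as it was over all genes.

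Serpina3n, an acute-phase inhibitor of granzyme B and cathepsin G in mice, had 9.01, 4.72, 23.3 and 12.7 CPM in brain. It had 9.98, 0, 1.01 and 2.16 CPM in tumor and 1.72, 1.45, 3.01 and 6.95 CPM in liver, while all 8 blood libraries had a count of 0. Its level was at least 765-fold higher in brain (adjusted p = 0.00202), 202-fold in tumor (adjusted p = 0.000918) and 208-fold in liver (adjusted p = 0.00467) than in tumor mouse blood. These bounds set the empty group at 3 counts over its 4 libraries, the limit that a count of 0 allows for counting error. Without tumor replicate 1 the bound in tumor was 62.6-fold, and without liver replicate 4 that in liver was 126-fold. Brain replicate 4 was highest for Serpina3n and for the endothelium and pericyte markers (449 CPM) and the choroid plexus and glia markers (1831 CPM) alike, and their part was not tested.

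Serpinh1, the collagen chaperone HSP47, had 7.28, 3.69, 13.4 and 1.38 CPM in brain, 83.7, 14.2, 41.7 and 6.74 CPM in tumor and 2.81, 1.00, 5.07 and 3.52 CPM in liver. It had no read in tumor mouse blood, and single reads in 2 sham libraries. It was at least 398-fold higher in brain (adjusted p = 4.57e-05), 2333-fold in tumor (adjusted p = 7.3e-07) and 191-fold in liver (adjusted p = 7.9e-05) than in tumor mouse blood. The bound was 253-fold in brain without brain replicate 4 and 1372-fold in tumor without tumor replicate 1. Between organs it was lower in brain than in tumor (log2 difference -2.50 ± 0.76, SE, adjusted p = 0.0308), although the ranges overlapped, and the call was lost without any of brain replicates 2, 3 and 5 or tumor replicates 1 and 3 (adjusted p = 0.0535 to 0.177), with lane as a term (0.138) and with only the compared groups (0.0623). Without brain replicate 4 the difference was -3.21 and without tumor replicate 1 it was -1.73. It was higher in tumor than in liver (3.54 ± 0.79, adjusted p = 0.00651), with 2.73 and an adjusted p of 0.0512 without tumor replicate 1, and 2.94 and 0.0836 with lane as a term.

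Serping1, the C1 inhibitor of the complement and contact pathways, was likewise absent from blood counts. It had 2.82, 1.22, 6.23 and 1.71 CPM in brain, 40.8, 0.991, 14 and 3.04 CPM in tumor and 1.76, 0.691, 1.19 and 2.73 CPM in liver, against 0 in all 8 blood libraries. It was at least 184-fold higher in brain (adjusted p = 0.00103), 931-fold in tumor (adjusted p = 2.98e-05) and 102-fold in liver (adjusted p = 0.00168) than in tumor mouse blood. Without brain replicate 4 the bound in brain was 117-fold, and without tumor replicate 1 that in tumor was 393-fold.

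The fibroblast markers moved with these genes. Their sum was 820, 32.2, 333 and 20.2 CPM in tumor libraries, so tumor replicates 1 and 3 were highest for the 12 markers as well as for Serpinh1 and Serping1. It was 31.4 to 49.3 CPM in brain and 10.2 to 80.0 CPM in liver, against 1.81 to 8.49 CPM in tumor mouse blood, where 5 of the 12 markers were at 0. Without tumor replicate 1 the calls of Serpinh1 and Serping1 against tumor mouse blood held, and the part of fibroblasts in them was not tested. In brain the endothelium and pericyte sum was 244, 136, 449 and 141 CPM, and replicate 4 was highest for this sum, Serpinh1 and Serping1. Of those 12 markers 9 were called higher in brain than in tumor mouse blood, and their part was not tested either.

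**Figure D3:**
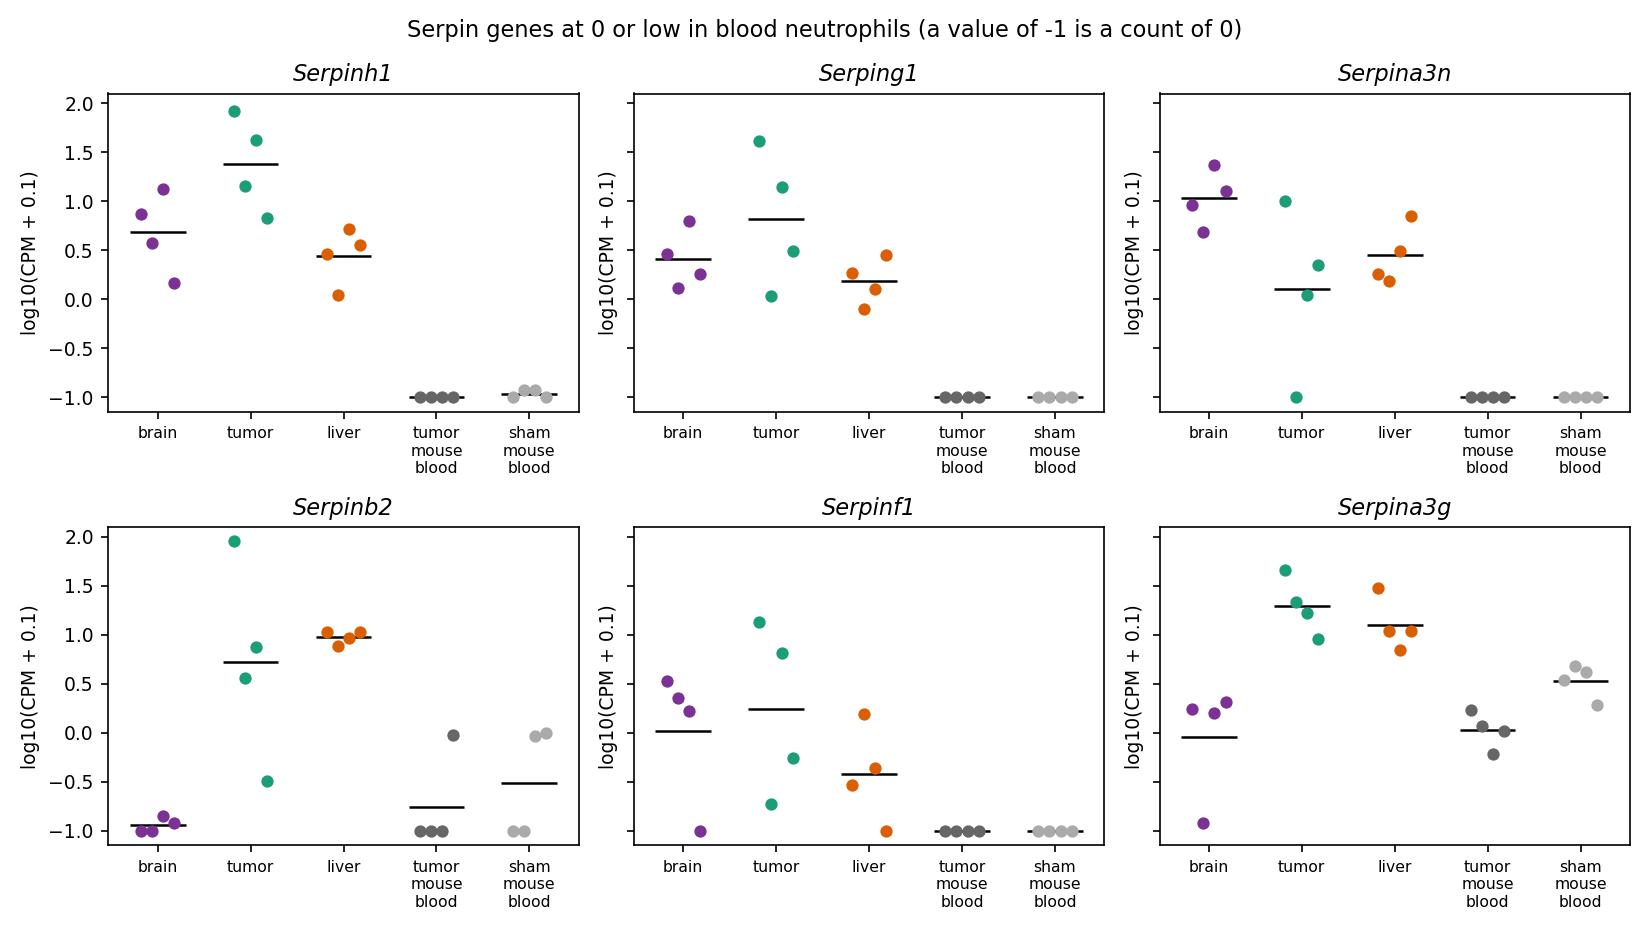
Log10(CPM + 0.1) of 6 serpin genes by group on a shared axis; points are libraries, horizontal lines are means of the plotted values, and -1 stands for a count of 0. Serpinh1, Serping1 and Serpina3n are at 0 in all tumor mouse blood libraries, and Serpinb2 and Serpina3g are lower in each brain library than in each tumor and liver library.

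Serpinf1, the antiangiogenic factor PEDF that inhibits no protease, had 3.25, 2.15, 1.55 and 0 CPM in brain and 13.5, 0.0874, 6.40 and 0.456 CPM in tumor. Liver had 0.191, 1.47, 0.340 and 0 CPM, and both blood groups had no read. Against tumor mouse blood it was at least 108-fold higher in brain (adjusted p = 0.038) and 326-fold in tumor (adjusted p = 0.00498). The brain call was lost without any of brain replicates 2, 3 and 4 or of the 4 tumor mouse blood libraries (adjusted p = 0.0579 to 0.0907), with lane as a term (adjusted p = 0.16), with a replicate block (0.0545) and with only the compared groups (0.0586). Without tumor replicate 1 the bound in tumor was 155-fold.

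In tumor-infiltrating neutrophils 9 members were higher and 0 lower than in tumor mouse blood (20.9% of 43), where 9.45% of all genes tested were called higher and 3.18% lower. They included Serpinh1, Serping1, Serpina3n and Serpinf1 again, and Serpina3g, Serpinb2, Serpinb5 and Serpind1. The median log2 fold change of the members was 1.03, against 0 over all genes. DESeq2-type (RLE) scaling moved the median of the 17026 genes that passed an expression filter (filterByExpr) by 0.13 in this comparison. The shift was -0.12 between brain and tumor and 0.15 between tumor and liver, which is small beside the changes named.

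Serpinb2, plasminogen activator inhibitor 2 of monocytes and epithelia, depended on a single tumor library. Brain held 3 reads in all. It had 89.5, 3.51, 7.43 and 0.219 CPM in tumor, against 0, 0, 0 and 0.842 CPM in tumor mouse blood, and the rise of 6.66 ± 1.78 (log2, SE, adjusted p = 0.00793) was lost without tumor replicate 1 (3.96, adjusted p = 0.096) and with lane as a term (5.52, adjusted p = 0.167). Without tumor mouse blood replicate 4 it was 9.35. Liver was more even, at 10.7, 7.53, 9.22 and 10.7 CPM, but missed the threshold against tumor mouse blood (adjusted p = 0.0706). The 3 reads in brain give a ratio to tumor of 0.000623 (95% counting interval 0.000128 to 0.00182, adjusted p = 0.00204) and to liver of 0.00164 (0.000339 to 0.00481, adjusted p = 0.0241). Without tumor replicate 1 the ratio to tumor was 0.00398, and without brain replicate 4, which held 2 of the 3 reads, the ratios were 0.000276 to tumor and 0.000729 to liver. The call against liver was lost without any brain library (adjusted p = 0.0577 to 0.0693). Exons of Serpinb2 and its neighbor Serpinb10 overlap by 291 bases on the same strand, so reads there may be divided between them.

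Serpina3g, an inhibitor of cathepsins in lymphoid and myeloid cells of mice, was high in tumor and liver. In brain it was at 1.64, 0.0193, 1.49 and 1.99 CPM. It had 46.2, 21.3, 16.6 and 9.05 CPM in tumor and 29.7, 10.9, 6.92 and 10.7 CPM in liver, against 1.59, 1.08, 0.507 and 0.950 CPM in tumor mouse blood, which overlapped with brain alone among the organs. The rise over tumor mouse blood was 4.45 ± 0.82 in tumor (log2, SE, adjusted p = 0.000287) and 3.77 ± 0.79 in liver (adjusted p = 0.00539). Brain was lower than tumor by -4.14 ± 0.80 (adjusted p = 0.000828) and lower than liver by -3.47 ± 0.78 (adjusted p = 0.0168), and the difference from liver had an adjusted p of 0.0637 without liver replicate 1, 0.0596 with a replicate block and 0.0646 with only the compared groups. Without liver replicate 1 the rise in liver was 3.12, and with lane as a term the rises were 3.00 in tumor and 3.16 in liver and the difference of brain from liver -4.08.

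Markers of macrophages rose in the organs where Serpina3g was high, and also in brain, where it was not called against tumor mouse blood. The macrophage and microglia markers summed to 6751 to 10058 CPM in tumor and 2392 to 4449 CPM in liver, against 1201 to 1606 CPM in tumor mouse blood, and 9 and 5 of the 12 were called higher. In brain the sum was 2177 to 8345 CPM and 8 of the 12 were called higher. Brain replicate 3 had the highest sum of that group (8345 CPM) and the lowest Serpina3g (0.0193 CPM). The B cell markers summed to 834, 53.5, 33.3 and 175 CPM in tumor and 298, 112, 61.1 and 72.9 CPM in liver, against 84.0 to 148 CPM in tumor mouse blood, so replicate 1 of each organ was highest for both this sum and Serpina3g. Of the 10 B cell markers, 0 were called higher and 2 lower in tumor, and 0 either way in liver. None of the macrophage or B cell markers was at 0 in tumor, liver or tumor mouse blood, and their part in Serpina3g or Serpinb2 was not tested.

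Serpinb5 and Serpind1 were also called in tumor. Serpinb5, maspin of epithelial cells, had no read in brain and averaged 7.12 ± 4.58 CPM in tumor (SD, n = 4) and 0.237 ± 0.374 in liver, against 0 in tumor mouse blood. That is at least 454-fold higher in tumor than in tumor mouse blood (adjusted p = 0.00118) and at least 461-fold lower in brain than in tumor (adjusted p = 0.00186). The epithelial markers summed to 1.12 to 19.5 CPM in brain and to 2185, 2413, 3543 and 1020.0 CPM in the 4 tumor libraries, and their part was not tested. Serpind1, heparin cofactor II, averaged 0.0361 ± 0.0433 CPM in brain, 5.13 ± 1.03 in tumor and 1.98 ± 0.600 in liver, against 0.214 ± 0.276 in tumor mouse blood. It was called in tumor against tumor mouse blood (adjusted p = 0.0168), in brain against tumor (adjusted p = 0.00255) and in brain against liver (adjusted p = 0.0387), the last of which was lost without any library of that pair (adjusted p = 0.0554 to 0.0983), with lane as a term (0.0725) and with only the compared groups (0.0635). The log2 rise over tumor mouse blood was 4.36, and 5.47 without tumor mouse blood replicate 3 and 5.35 with lane as a term. DESeq2 gave -7.27 and -5.74 in brain against tumor and liver, where edgeR gave -6.11 and -4.75.

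Some clade B members were high in tumor without passing the test. Serpinb9, the inhibitor of granzyme B, had 22.9, 11, 35.6 and 12.1 CPM in tumor, against 0, 1.36, 1.35 and 0.648 CPM in tumor mouse blood (adjusted p = 0.0512), so the groups did not overlap. Serpinb6b had 10.2, 11.7, 15.2 and 7.06 CPM in tumor, against 1.13, 0.670, 0 and 0.108 CPM in tumor mouse blood (adjusted p = 0.0644). The macrophage and microglia markers (6751 to 10058 CPM in tumor, against 1201 to 1606 CPM in tumor mouse blood) and the epithelial markers (1020.0 to 3543 CPM, against 3.41 to 6.98 CPM) moved with both genes, with 9 and 10 of 12 called higher, and their part was not tested. Serpinb9b had no read in brain and averaged 1.84 ± 0.899 CPM in tumor. It was at least 119-fold lower in brain (adjusted p = 0.0244), a call lost without brain replicate 2 or 5 (adjusted p = 0.0507 and 0.0516), with a replicate block (0.0729) and with lane as a term (0.0503).

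**Figure D4:**
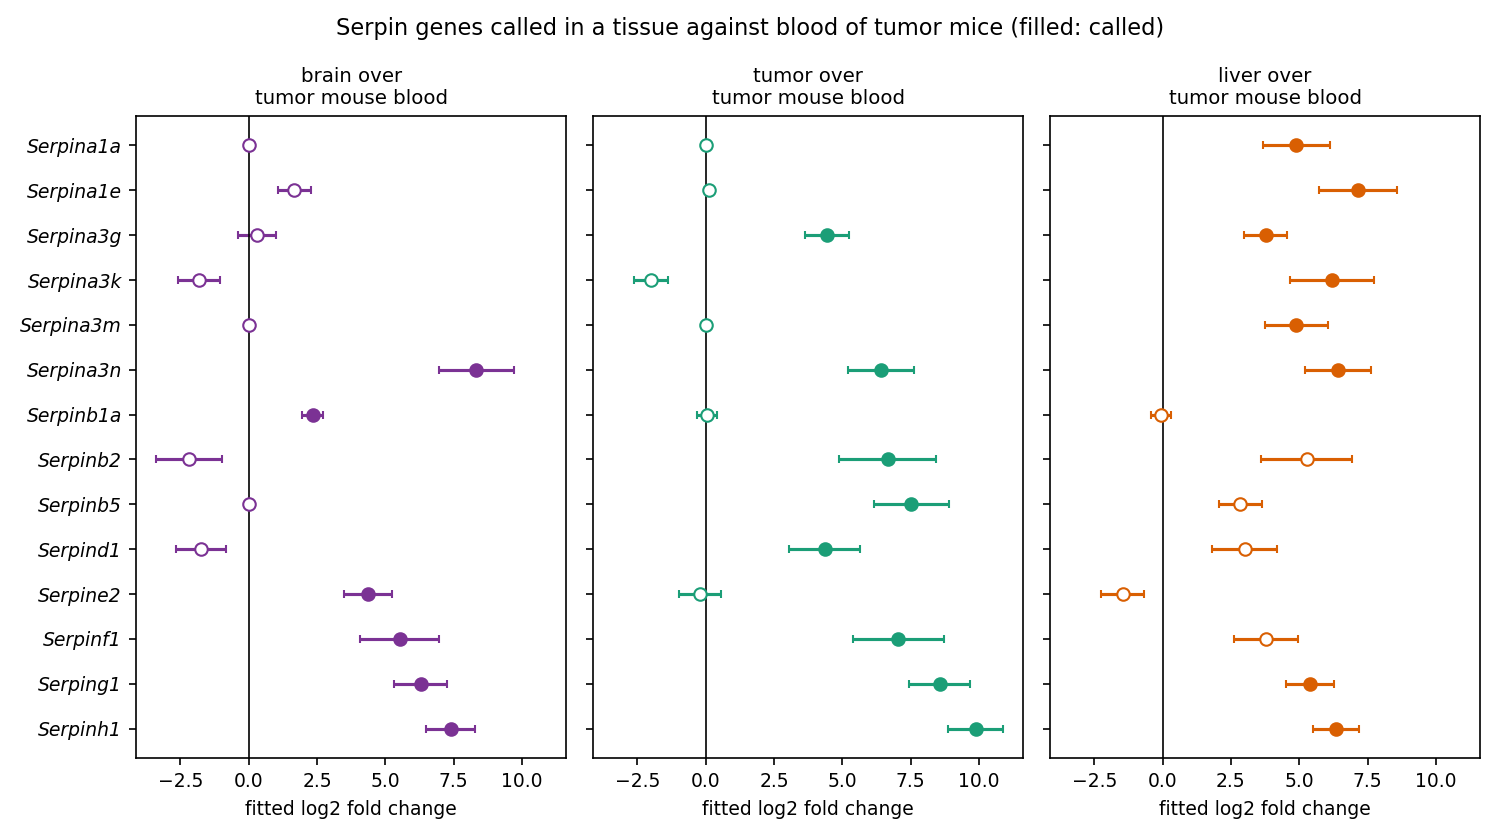
Fitted log2 fold change (x axis) of brain, tumor and liver over tumor mouse blood. The 14 serpin genes shown were called in at least 1 of these comparisons. Bars are SE, the size of the fold change divided by the square root of its F statistic, and filled points are called. Serpinh1, Serping1 and Serpina3n are filled in all 3 panels, and Serpinb1a and Serpine2 in the brain panel alone. Fitted values and bars of genes with no read in blood depend on the prior count of 2.

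Liver neutrophils differed from tumor mouse blood by 8 members higher and 0 lower (18.6% of 43), where 2.69% of all genes tested were called higher and 0.257% lower. Besides Serpinh1, Serping1, Serpina3n and Serpina3g they were 4 clade A genes of a single cluster on chromosome 12: Serpina3k, Serpina1e, Serpina1a and Serpina3m. The median log2 fold change of the members was 2.45 as fitted and 3.00 with genes at 0 set to their bound, against 0 over all genes.

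Serpina3k, a plasma inhibitor that binds kallikrein, had a single read in brain, none in tumor and sham mouse blood, and 5.87, 8.29, 5.36 and 25.4 CPM in liver, against 0, 0, 0.463 and 0 CPM in tumor mouse blood. The rise in liver was 6.19 ± 1.54 (log2, SE, adjusted p = 0.0277), and it was lost without liver replicate 4 or any of tumor mouse blood replicates 1, 2 and 4 (adjusted p = 0.0515 to 0.122). It was 5.37 without liver replicate 4, 8.18 without tumor mouse blood replicate 3 and 6.84 with lane as a term. Liver also stood apart from tumor (at least 1034-fold lower in tumor, adjusted p = 0.00125) and from brain (ratio of brain to liver 0.000456, 95% counting interval 1.15e-05 to 0.00254, adjusted p = 0.00926). Without liver replicate 4 the bound was 581-fold and the ratio 0.000811, without brain replicate 3 brain had no read, and with lane as a term the call of brain against liver was lost (adjusted p = 0.0859). The fall in tumor against tumor mouse blood rests on the 21 reads of replicate 3 and passed the p threshold but not the fold threshold (adjusted p = 0.0311).

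The Serpina1 genes encode alpha-1-antitrypsin, the main plasma inhibitor of neutrophil elastase, which mice hold in several near-identical copies, so the division of reads among them is uncertain. Serpina1e had a single read in tumor and averaged 5.49 ± 2.56 CPM in liver (SD, n = 4; adjusted p = 0.00509). It had no read in tumor mouse blood, so the rise in liver was at least 337-fold (adjusted p = 0.00672). Serpina1d, Serpina1a and Serpina1b were at 0 in tumor and averaged 1.32 ± 0.278, 1.11 ± 0.408 and 0.940 ± 0.450 CPM in liver.

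These smaller clade A calls were often lost when a library was left out. Serpina1a was at least 70.9-fold higher in liver than in tumor mouse blood (adjusted p = 0.0365) and Serpina3m, at 1.11 ± 0.775 CPM in liver, at least 71.2-fold (adjusted p = 0.0424), and both calls were lost whichever of the 8 libraries was left out (adjusted p = 0.0583 to 0.0855 for Serpina1a, 0.0671 to 0.108 for Serpina3m). The same held for Serpina1d in tumor against liver (adjusted p = 0.0409, and 0.0654 to 0.0971 with a library left out). Serpina1b and Serpina3m in tumor against liver (adjusted p = 0.0333 and 0.024) were lost without 7 and 5 of the libraries (0.0566 to 0.0882 and 0.0522 to 0.0635). Serpina1a there had an adjusted p of 0.0197, and 0.0506 and 0.0576 without tumor replicates 1 and 3. Lane as a term ended the calls of Serpina1a and Serpina3m in liver against tumor mouse blood (adjusted p = 0.0663 and 0.0993) and of Serpina1a, Serpina1b and Serpina3m in tumor against liver (0.126, 0.102 and 0.173). A replicate block ended those of Serpina1a and Serpina3m in both comparisons (0.0608 and 0.138 in liver against tumor mouse blood, 0.0592 and 0.145 in tumor against liver) and of Serpina1d in tumor against liver (0.102). DESeq2 ended both calls of Serpina3m (0.107 and 0.0799). Without liver replicate 4 the bounds of Serpina3m were 47.2-fold over tumor mouse blood and 67.8-fold over tumor, and without tumor replicate 3 Serpina1e had no read in tumor.

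Hepatocyte transcripts were highest in liver, as were Serpina3k, Serpina3m and the Serpina1 genes. The clade A genes Serpina3g and Serpina3n, also called higher in liver than in tumor mouse blood, had their highest means in tumor and in brain. The 12 hepatocyte markers summed to 80.3 to 137 CPM in liver, against 11 to 24.9 CPM in tumor mouse blood, and 8 of 12 were called higher in liver. All 12 were counted in liver, while 9 were at 0 in tumor mouse blood. In tumor the markers summed to 28.1 to 61.4 CPM, with 1 called higher than in tumor mouse blood, and Serpina3k, Serpina1a and Serpina3m had no read there. Alb, albumin, had 10.2, 16.4, 7.52 and 23.2 CPM in liver and at most 2.04 CPM in any brain, tumor or blood library, and liver replicate 4 was highest for the marker sum, Alb and Serpina3k alike. Serpina1e was highest in liver replicate 2 instead, and the part of hepatocytes in these calls was not tested.

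**Figure D5:**
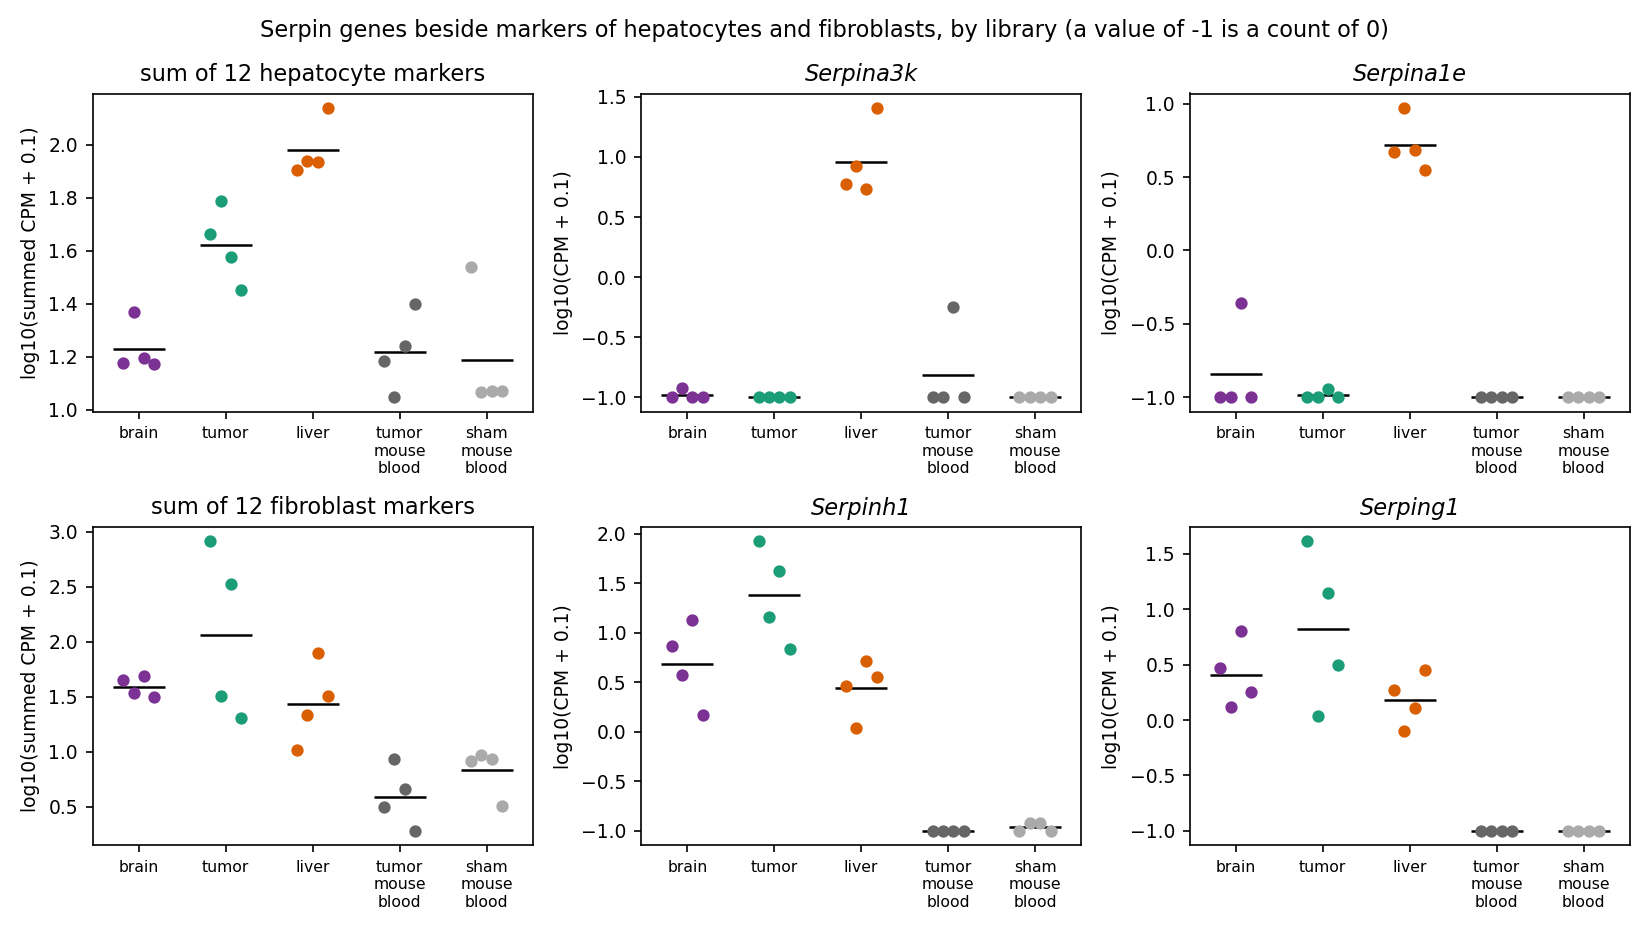
Log10 of CPM + 0.1 by group: at left the summed CPM of 12 hepatocyte markers (upper row) and 12 fibroblast markers (lower row), and beside them 2 serpin genes each; points are libraries, horizontal lines are means of the plotted values, and -1 stands for a count of 0. Serpina3k and Serpina1e are high in the 4 liver libraries, where the hepatocyte sum is 80.3 to 137 CPM, and Serpinh1 and Serping1 are highest in the tumor libraries with fibroblast sums of 820 and 333 CPM.

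Between organs, brain had 3 members higher and 7 lower than tumor (6.98% and 16.3% of 43), where 2.68% of all genes tested were called higher and 3.8% lower. The 3 were Serpinb1a, Serpine2 and Serpinb10, and the 7 included Serpinh1, Serpinb2, Serpina3g, Serpinb5, Serpind1 and Serpinb9b. Without brain replicate 2 only 4 of the lower calls were made. Brain had 2 members higher than liver (4.65%, Serpinb1a and Serpine2) and 4 lower (9.30%, Serpinb2, Serpina3g, Serpina3k and Serpind1), where 0.504% and 0.88% of all genes were called. Without any of brain replicates 2, 3 and 5 or liver replicate 1 only 2 were called lower. The comparisons of brain share the brain libraries and are not independent.

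Tumor had 1 member higher and 7 lower than liver (2.33% and 16.3%), where 1.17% and 1.32% of all genes tested were called. The member that rose was Serpinh1, and the 7 were Serpinb10 and the clade A genes Serpina3k, Serpina1e, Serpina1d, Serpina1a, Serpina3m and Serpina1b. Without tumor replicate 1, 0 members were higher and 3 lower, and 3 were also lower without tumor replicate 3 and 4 without tumor replicate 2 or liver replicates 1 or 2. Without tumor replicates 2 or 5 or liver replicate 4, 2 members were higher.

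Serpinb10, a clade B gene of hematopoietic cells that the annotation lists as a polymorphic pseudogene, was nearly missing from tumor. It had 5.74, 6.36, 11.7 and 8.23 CPM in brain and 0.849, 0.0146, 0 and 0 CPM in tumor, against 15.1, 4.06, 4.8 and 1.19 CPM in liver. Tumor mouse blood had 2.51, 3.03, 0.684 and 1.12 CPM and sham mouse blood 4.81, 15.5, 10.6 and 19.5 CPM, and these groups did not overlap. Brain was higher than tumor by 4.98 ± 1.2 (log2, SE, adjusted p = 0.0054), which missed the threshold with only the compared groups (adjusted p = 0.0579). Tumor was lower than liver by -4.64 ± 1.18 (adjusted p = 0.0134), which missed the threshold without liver replicate 1 (-3.67, adjusted p = 0.0583) and with only the compared groups (0.0883). Without tumor replicate 1, which held nearly all tumor reads, the differences were 7.48 and -7.16, with lane as a term 5.61 and -6.00, and with a replicate block brain was higher than tumor by 6.41. Over the organs the neutrophil markers moved with Serpinb10: they summed to 76892 CPM in brain, 11528 CPM in tumor and 42294 CPM in liver. Of the 12, 8 were called higher in brain than in tumor and 6 lower in tumor than in liver. In blood the order was opposite: they summed to 60274 CPM in tumor mouse blood and 33573 CPM in sham mouse blood, where Serpinb10 averaged 1.83 and 12.6 CPM. The part of neutrophil content was not tested. The difference of Serpinb10 between tumor mouse blood and sham mouse blood missed the threshold too (-2.76 ± 1.10, adjusted p = 0.209).

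No serpin was called between tumor mouse blood and sham mouse blood. The edgeR test called 0 members in either direction, where 0.605% of all genes tested were called higher and 0.848% lower, although 7 members had an unadjusted p under 0.05. DESeq2 called 1 member higher, and a fit on these 8 libraries alone called 1 lower. Serpina3g averaged 1.03 ± 0.446 CPM in tumor mouse blood and 3.47 ± 1.25 CPM in sham mouse blood (SD, n = 4 each, adjusted p = 0.242), and Serpinb6a 32.7 ± 13.5 and 17.9 ± 7.22 CPM in those groups (adjusted p = 0.231).

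The members described next were called in no comparison, and some of them were sparse. Serpinb6a, a cytoplasmic inhibitor of cathepsin G, had 15.7 to 65.1 CPM in the organs and was called nowhere, and its exons overlap those of Nqo2 and Ripk1 on the opposite strand. Serpini1, neuroserpin, averaged 1.90 to 4.00 CPM in the 5 groups, Serpinb8 1.21 to 5.94 CPM and Serpina3f 0.248 to 4.13 CPM, all without a call. Serpinc1, antithrombin, averaged 1.5 ± 0.960 CPM in liver and 0.485 ± 0.306 CPM or less elsewhere, and shares 2942 exon bases with Zbtb37 on the opposite strand. By clade, 6 of 17 clade A genes were called higher in liver than in tumor mouse blood, where 2.69% of all genes tested were. Of the 15 clade B genes 0 were, which is near the share of all genes.

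Members of a family lie side by side in the genome, and neighbors differed in where they were high. In mm10, 16 of the 17 clade A members lie on chromosome 12 between 103614786 and 104414329, while 9 clade B members are on chromosome 13 and 6 on chromosome 1. Serpina3g and Serpina3n are both in the chromosome 12 cluster, yet brain had the highest mean of Serpina3n, while for Serpina3g it overlapped with tumor mouse blood. The regions before their start sites are shown with those of Serpine2 and Serpinb2, a choice made after their values were seen. Among these 4 genes, Serpine2 and Serpina3n had their highest mean in brain, and Serpinb2 and Serpina3g in tumor. RefSeq (GRCm38.p6) gave windows of 250 bases before to 50 after the start for 35 of 43 members, 41 windows in all. Windows were searched on both strands for TATAAA, for TTCNNNGAA (the STAT motif) and for TTGCNNAA (the C/EBP motif), and matches are in capitals:
Serpine2, chr1:79858616-79858915, minus strand: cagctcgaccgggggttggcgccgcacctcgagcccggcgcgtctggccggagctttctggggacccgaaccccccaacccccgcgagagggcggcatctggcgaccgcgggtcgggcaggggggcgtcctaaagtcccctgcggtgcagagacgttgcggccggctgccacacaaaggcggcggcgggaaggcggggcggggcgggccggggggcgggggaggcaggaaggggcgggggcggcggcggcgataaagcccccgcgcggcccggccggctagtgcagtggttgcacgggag
Serpinb2, chr1:107511173-107511472, plus strand: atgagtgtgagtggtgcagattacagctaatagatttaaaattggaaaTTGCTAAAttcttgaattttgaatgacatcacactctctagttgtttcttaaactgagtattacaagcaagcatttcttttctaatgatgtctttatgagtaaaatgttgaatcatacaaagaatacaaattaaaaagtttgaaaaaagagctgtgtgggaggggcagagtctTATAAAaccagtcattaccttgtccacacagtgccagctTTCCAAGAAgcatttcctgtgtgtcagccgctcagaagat
Serpina3g, chr12:104235897-104236196, plus strand: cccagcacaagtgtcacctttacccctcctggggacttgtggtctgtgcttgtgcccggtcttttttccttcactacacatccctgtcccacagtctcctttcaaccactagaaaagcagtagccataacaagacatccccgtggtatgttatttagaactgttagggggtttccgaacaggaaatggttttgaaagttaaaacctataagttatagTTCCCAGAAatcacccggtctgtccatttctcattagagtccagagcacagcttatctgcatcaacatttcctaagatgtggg
Serpina3n, chr12:104406458-104406757, plus strand: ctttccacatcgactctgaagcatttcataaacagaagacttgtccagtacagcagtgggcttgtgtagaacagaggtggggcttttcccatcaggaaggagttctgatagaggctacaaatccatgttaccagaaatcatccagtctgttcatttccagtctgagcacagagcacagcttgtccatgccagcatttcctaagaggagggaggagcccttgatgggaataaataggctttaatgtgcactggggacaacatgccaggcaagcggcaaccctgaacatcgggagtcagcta

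Serpinb2 holds all 3 motifs, Serpina3g holds TTCNNNGAA alone, and Serpine2 and Serpina3n hold none of the 3 in these windows. Over the family's 41 windows, 10 hold TATAAA, 9 TTCNNNGAA and 13 TTGCNNAA, and of 32851 windows in the genome 13.6%, 8.3% and 10.8% do. A match is a description of the sequence and not a binding site.

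Against tumor mouse blood, several proteases that serpins inhibit were called in tumor and liver, and in brain Plat alone. Of 22 genes in a list of such proteases, 21 had a count, and against tumor mouse blood 1 was higher and 0 lower in brain, 7 higher and 1 lower in tumor, and 4 higher and 0 lower in liver (median log2 fold changes 0.41, 1.39 and 1.52, against 0 over all genes in each). Of all genes tested, 2.66% were called higher in brain, 9.45% in tumor and 2.69% in liver, and 0.396%, 3.18% and 0.257% lower. The 1 of 21 in brain is near the share of all genes. F10, coagulation factor X, was highest in tumor (152 ± 51.8 CPM) and liver (99.8 ± 25.2), against 21.2 ± 14.8 CPM in tumor mouse blood (SD, n = 4; adjusted p = 0.00182 and 0.0363). Ctsl, cathepsin L, averaged 559 ± 288 CPM in tumor and 435 ± 177 in liver, against 71.2 ± 33.7 CPM in tumor mouse blood (adjusted p = 4.58e-06 and 0.00011). Ctss, cathepsin S, averaged 1874 ± 519 CPM in tumor and 334 ± 146 CPM in tumor mouse blood (adjusted p = 3.19e-05). The macrophage and microglia markers summed to 6751 to 10058 CPM in tumor and 2392 to 4449 CPM in liver, against 1201 to 1606 CPM in tumor mouse blood. The part of these cells in F10, Ctsl and Ctss was not tested. In tumor mouse blood against sham mouse blood, where 0.605% of all genes were called higher, 3 of the listed proteases were higher and 0 lower, including Prtn3 (log2 2.71 ± 0.55, SE, adjusted p = 0.00547) and Ctsl (2.00 ± 0.37, adjusted p = 0.00255).

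Protease inhibitors of other families were called in both directions in tumor. Of 22 such genes, 4 were higher and 7 lower in tumor than in tumor mouse blood, and 7 were higher and 0 lower in tumor mouse blood than in sham mouse blood (median log2 fold changes 0.05 and 0.11). Of all genes, 9.45% were called higher and 3.18% lower in the first comparison, and 0.605% and 0.848% in the second. The neutrophil markers moved with the 7 genes called lower in tumor and against the 4 called higher there. They summed to 11528 CPM in tumor and 60274 CPM in tumor mouse blood, with 9 of 12 called lower. In sham mouse blood they summed to 33573 CPM, and 2 were called higher in tumor mouse blood, the direction of the 7 genes called between the blood groups. The part of neutrophil content was not tested. Slpi, the secreted inhibitor of elastase, averaged 175 ± 63.9 CPM in tumor and 1717 ± 408 CPM in tumor mouse blood (SD, n = 4 each; adjusted p = 4.56e-08). Wfdc21, a small secreted protein with a WAP domain, averaged 765 ± 97.4 CPM in tumor mouse blood and 114 ± 34.1 CPM in sham mouse blood (adjusted p = 6.24e-05). In brain 2 were higher and 0 lower than in tumor mouse blood, where 2.66% of all genes were called higher and 0.396% lower. They included Timp3, an inhibitor of metalloproteases, at 65.4 ± 44.0 CPM in brain and 0.00508 ± 0.0102 CPM in tumor mouse blood (adjusted p = 2.79e-06). Timp3 was also called higher in tumor and in liver than in tumor mouse blood. The endothelium and pericyte markers summed to 136 to 449 CPM in brain, against 2.21 to 9.11 CPM in tumor mouse blood, and their part was not tested.

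Of 13 cofactors and clearance receptors of serpins, 3 were higher and 0 lower in brain, 5 higher and 1 lower in tumor, and 6 higher and 0 lower in liver than in tumor mouse blood (median log2 fold changes 1.05, 0.63 and 1.72), where 2.66%, 9.45% and 2.69% of all genes were called higher. In the same comparisons 0.396%, 3.18% and 0.257% of all genes were called lower. Lrp1, which clears complexes of serpins and proteases, averaged 95 ± 20.3 CPM in tumor and 89.8 ± 40.3 in liver, against 19 ± 6.86 CPM in tumor mouse blood (SD, n = 4; adjusted p = 0.00143 and 0.00889). Sdc1, syndecan 1 with heparan sulfate chains, averaged 211 ± 106 CPM in tumor and 0.341 ± 0.64 CPM in tumor mouse blood (adjusted p = 3.57e-06). The epithelial markers summed to 1020.0 to 3543 CPM in tumor, against 3.41 to 6.98 CPM in tumor mouse blood. The macrophage and microglia markers summed to 6751 to 10058 CPM in tumor and 2392 to 4449 CPM in liver, against 1201 to 1606 CPM in tumor mouse blood. The part of these cells in Lrp1 and Sdc1 was not tested. In tumor mouse blood 2 of the 13, Thbd and Sdc1, were lower than in sham mouse blood and 0 were higher, where 0.848% and 0.605% of all genes were called. The B cell markers summed to 109 CPM in tumor mouse blood and 1625 CPM in sham mouse blood and 6 of 10 were called lower, and their part was not tested.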

How the data were processed

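Neutrophil RNA was amplified by SMART-Seq v4, which does not mark strand, and sequenced as single reads with 4 libraries per lane. Brain was in lanes 1, 2 and 3, tumor in 2, 3 and 5, and liver in 1, 2, 4 and 5. Tumor mouse blood was in lanes 1 and 4, and sham mouse blood in 2, 3, 4 and 5. Tumor and tumor mouse blood shared no lane, so a fit with lane as a term cannot fully separate lane from group. The authors deposited raw read counts per Ensembl gene. Their processing notes name mm10 and DESeq2, and no source used here names the aligner, counter or annotation. The authors' rlog values were not used. Of 51918 entries, 6 were identical repeats and were dropped. Genes counted in any library (28762) were fitted in edgeR 4.0.16 (R 4.3.3) with TMM scaling, 1 model of 5 groups over 20 libraries, a prior count of 2, quasi-likelihood tests and Benjamini-Hochberg adjustment over all genes. The study's thresholds were kept. The SE of a log2 difference was calculated back from the test, as its size divided by the square root of F. For genes with few reads it depends on the prior count. Scripts were tested on simulated counts. Members with a group mean of at least 1 CPM or a call are described, every library is given where a called member reached a group mean of 10 CPM (and for Serpinf1, Serpinb9 and Serpinb6b, chosen after their values were seen), and at most 4 called genes per list and comparison are named. Elane, Prtn3, Ctsg and markers are named for their roles, with values known. A member that enters the counts and totals is not reported here by itself. Exon lengths and overlaps came from GENCODE M21. Members, lists and markers were chosen with earlier results of these data known. Alternatives were DESeq2 1.42.0, RLE scaling, filterByExpr, a replicate block, lane as a term, only the compared groups, no fold threshold, and each library left out. Intervals cover counting error only.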

Additional observations from a re-analysis of the deposited data

Results flagged for a closer look

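Among 69 sets of 4 libraries, 1 library stood apart from the other 3 in 6 sets by Dixon's test on log values, and chance gives about 1 in 20. For Serpinb1a, sham mouse blood replicate 2 had 171 CPM, against 45.9 to 56.9 CPM in the other sham libraries. Serpinb6a had 20.8 CPM in brain replicate 3, against 44.4 to 46.6 CPM in the other brain libraries, and 52.9 CPM in tumor mouse blood replicate 4, against 24.7 to 26.6 CPM. Serpina3g had 0.0193 CPM in brain replicate 3, a single read, against 1.49 to 1.99 CPM. Serpinb8 had 0 CPM in sham mouse blood replicate 1, against 3.00 to 3.82 CPM, and Serpini1 had 0.728 CPM in sham mouse blood replicate 4, against 4.18 to 5.42 CPM.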

How the results depend on the processing

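Of 47 calls of a member in a comparison, 26 held under every alternative run. Of 658 log2 differences of these calls under an alternative, 548 kept the call, 110 lost it and 0 reversed. The log2 difference of Serpina3k in tumor against tumor mouse blood, which was past the p threshold alone, was -5.24 to 0, and 0 without tumor mouse blood replicate 3, the only library of the pair with a read. Members called higher against tumor mouse blood numbered 12 in tumor and 12 in liver with DESeq2, 7 and 7 with lane as a term, 11 and 12 with only the compared groups, and 11 and 7 with a replicate block, so the order of these organs depends on the setting. Other counts of members called changed as follows. DESeq2 gave 1 lower in brain against tumor mouse blood, 1 higher in tumor mouse blood against sham mouse blood, 7 lower in brain against liver and 3 higher in tumor against liver. In tumor against tumor mouse blood, 1 was lower with DESeq2, with filterByExpr, with a replicate block, with lane as a term and with no fold threshold. With filterByExpr 7 were lower in brain against liver and 2 higher in tumor against liver. With lane as a term 2 were lower in brain against liver, and 0 higher and 4 lower in tumor against liver. With only the compared groups 1 was lower in tumor mouse blood against sham mouse blood and 4 higher in tumor against liver. The cause was not tested.

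With a library left out, members called higher against tumor mouse blood were 5 to 6 in brain, 8 to 10 in tumor and 5 to 7 in liver (5 without liver replicate 4 or tumor mouse blood replicates 1 or 2), and those called lower were 0 in brain, 0 to 1 in tumor (1 without tumor replicate 1 or tumor mouse blood replicates 1, 2 or 4) and 0 in liver. Brain against tumor gave 3 higher and 4 to 7 lower, brain against liver 2 higher and 2 to 4 lower, and tumor against liver 0 to 2 higher and 3 to 5 lower. Between tumor mouse blood and sham mouse blood 0 were called either way. Members that differed over the 5 groups numbered 20 to 25.

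Over 23 same-numbered pairs of libraries the correlation of deviations from group means was -0.107 to 0.155 (12275 genes), 5 pairs were over 0.1, and in no comparison were all. Low correlations cannot exclude that same-numbered libraries of tumor mice came from the same mouse. With a replicate block 2 members were higher and 4 lower in tumor against liver. In all 30 within-group pairs the counts differed beyond sampling noise (chi-square per gene 100.8 to 543).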
